A study of Mus musculus with 17 samples.

Results

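Immediate early response genes were followed in early thymocytes of C57BL/6 mice, either wild-type or transgenic for Lmo2. The 10 genes are Egr1, Egr2, Egr3, Nr4a1, Nr4a3, Fos, Jun, Junb, Zfp36 and Dusp1, chosen by name from the 27179 gene identifiers of the count table, all of which they matched. Lmo2 encodes a LIM-only adaptor protein of blood progenitors that is normally silenced at T lineage commitment. The labels name neither the promoter that drives the transgene nor the founder line. DN2 and DN3a are successive stages of thymocytes that lack CD4 and CD8, and the beta chain of the T cell receptor is rearranged around the second of them. RNA was sequenced from 17 libraries in 6 groups. Young mice gave 2 wild-type and 3 transgenic libraries of DN2 cells (2.5 weeks) and 3 and 3 of DN3a cells (2.5 weeks, with 1 wild-type mouse of 3 weeks). Older mice gave 3 wild-type DN3a libraries (8, 8 and 10 weeks) and 3 transgenic ones (6, 10 and 10 weeks). The mouse is named for every library, and 5 young mice gave both a DN2 and a DN3a library. Wild-type mouse 2 and transgenic mouse 166 are male and the others female. Libraries of a group are from different mice, so the spread between them includes that between animals.

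Immediate early genes are transcribed within minutes of a stimulus from factors already present in the cell, and their transcripts and proteins are short-lived. In thymocytes, signals from the pre-T cell receptor and the T cell receptor induce EGR and NR4A factors and the AP-1 subunits through MAP kinase and calcium pathways. The same genes are also known to be induced in many tissues while cells are being dissociated and sorted, often together with genes of the heat shock response. The labels give no handling time, so which of these a level reflects was not tested.

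The 10 genes fall into 4 kinds by role. Fos, Jun and Junb encode subunits of the AP-1 transcription factor. Egr1, Egr2 and Egr3 encode zinc finger factors of the EGR family, of which Egr2 and Egr3 act in thymocyte beta selection. Nr4a1 and Nr4a3 encode orphan nuclear receptors used as reporters of antigen receptor signalling. Zfp36 encodes tristetraprolin, which promotes decay of AU-rich messenger RNAs, and Dusp1 encodes a phosphatase that switches off MAP kinases. On GRCm38, Zfp36 lies on chromosome 7 (28376784 to 28379228), Nr4a1 on chromosome 15 (101253902 to 101274795), Jun on chromosome 4 (95049036 to 95052222) and Junb on chromosome 8 (84976909 to 84978748).

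Sequence before the start sites is shown because the data concern genes that move together and because serum response factor and CREB are classical activators of this class. RefSeq promoter windows (GRCm38.p6) were matched for 8 of the 10 genes, all but Egr1 and Egr3. The 250 bases before each start were searched on both strands, and sites further upstream were not. The CArG box is the site of serum response factor. CREB binds the palindrome TGACGTCA, and its core TGACG, which also occurs alone, was counted separately, matches inside the palindrome included. The AP-1 site was searched as TGANTCA. The core of a heat shock element was searched as GAANNTTC. In the sequences printed here, capitals mark a CArG box or the CREB core, which appears as its reverse complement where it lies on the other strand. The first 3 sequences are whole windows of Fos (chr12:85473640-85473889, plus strand), Nr4a1 (chr15:101266596-101266845, plus strand) and Egr2 (chr10:67537619-67537868, plus strand).
Fos: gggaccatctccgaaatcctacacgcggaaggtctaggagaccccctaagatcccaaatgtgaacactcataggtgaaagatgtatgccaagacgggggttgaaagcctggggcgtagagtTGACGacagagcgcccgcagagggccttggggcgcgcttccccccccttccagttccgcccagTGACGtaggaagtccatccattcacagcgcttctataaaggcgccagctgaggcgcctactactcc
Nr4a1: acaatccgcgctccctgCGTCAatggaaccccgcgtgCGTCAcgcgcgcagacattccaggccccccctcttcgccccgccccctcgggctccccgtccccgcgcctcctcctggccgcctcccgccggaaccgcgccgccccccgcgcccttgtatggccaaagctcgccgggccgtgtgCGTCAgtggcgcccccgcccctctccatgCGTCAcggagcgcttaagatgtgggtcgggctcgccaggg
Egr2: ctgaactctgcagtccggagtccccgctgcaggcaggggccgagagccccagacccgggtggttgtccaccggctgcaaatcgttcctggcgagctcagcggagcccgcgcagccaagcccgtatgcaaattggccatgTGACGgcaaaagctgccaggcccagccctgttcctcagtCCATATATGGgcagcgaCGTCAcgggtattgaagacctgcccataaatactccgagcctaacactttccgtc
For Zfp36 (chr7:28379267-28379296, minus strand) and Dusp1 (chr17:26508597-26508626, minus strand), 30 bases around the match are given.
Zfp36: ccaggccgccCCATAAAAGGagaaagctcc
Dusp1: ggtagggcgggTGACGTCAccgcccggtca
A CArG box was found for Egr2 and Zfp36, 2 of 8 genes, and for 1.62% of the 27025 genes with a window (1.47% of all windows). TGACG was found for 6 of 8 genes and for 19.8% of all genes (17.8% of windows), with 2 matches in the Fos window. The full TGACGTCA was found for Dusp1 alone of the 8, and for 1.77% of genes (1.55% of windows). TGANTCA matched 0 of the 8 and 7.82% of genes (6.75% of windows), and GAANNTTC matched Jun alone and 7.73% of genes (6.69% of windows). A match describes letters in the window and not binding, and no binding was measured here.

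Libraries held 7183303 to 11360308 counted reads, so that 1 read equals 0.0880 to 0.139 CPM, the usual scaling of a count by its library total. Of the 15 markers of DN2 and DN3 thymocytes followed, 0 lacked reads in any group. Their levels differed between the genotypes, with 2 higher and 7 lower in transgenic DN2, where 25.3% of all genes were called. In young transgenic DN3a 1 was higher and 4 lower (9.86% of genes called), and in old 3 higher and 8 lower (30.6%). Library names begin with a or b, whose meaning the labels do not give. The b libraries are wild-type young DN3a replicate 3, wild-type old DN3a replicates 2 and 3 and transgenic old DN3a replicates 2 and 3. The letter is therefore unequal between the genotypes in young DN3a, and the same in both genotypes at DN2 (a alone) and in old DN3a (a, b and b).

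Per kilobase of the annotated length, the median level over the 17 libraries ran from Junb (43.0 CPM per kilobase) and Jun (37.4) through Fos (25.1), Dusp1 (20.5), Zfp36 (16.7), Nr4a1 (12.4) and Egr1 (7.93) to Egr2 (0.363), Nr4a3 (0.254) and Egr3 (0 at the median). The 7 higher genes overlapped with their neighbours in this order across libraries, while Egr2, Nr4a3 and Egr3 were scarce. Egr3 had 31 reads in all and 0 reads in 9 libraries, and it did not pass the filter on low counts, so 9 of the 10 genes were tested. Of its reads, 16 were in wild-type young DN3a and 10 in wild-type old DN3a, against 1 and 0 in the transgenic groups of the same ages. Over the 30232781 reads of transgenic old DN3a, a count of 0 allows up to 0.0992 CPM (3 counts over the group, counting error only). In bulk RNA, fewer cells with a transcript and less of it per cell cannot be told apart.

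**Figure D1:**
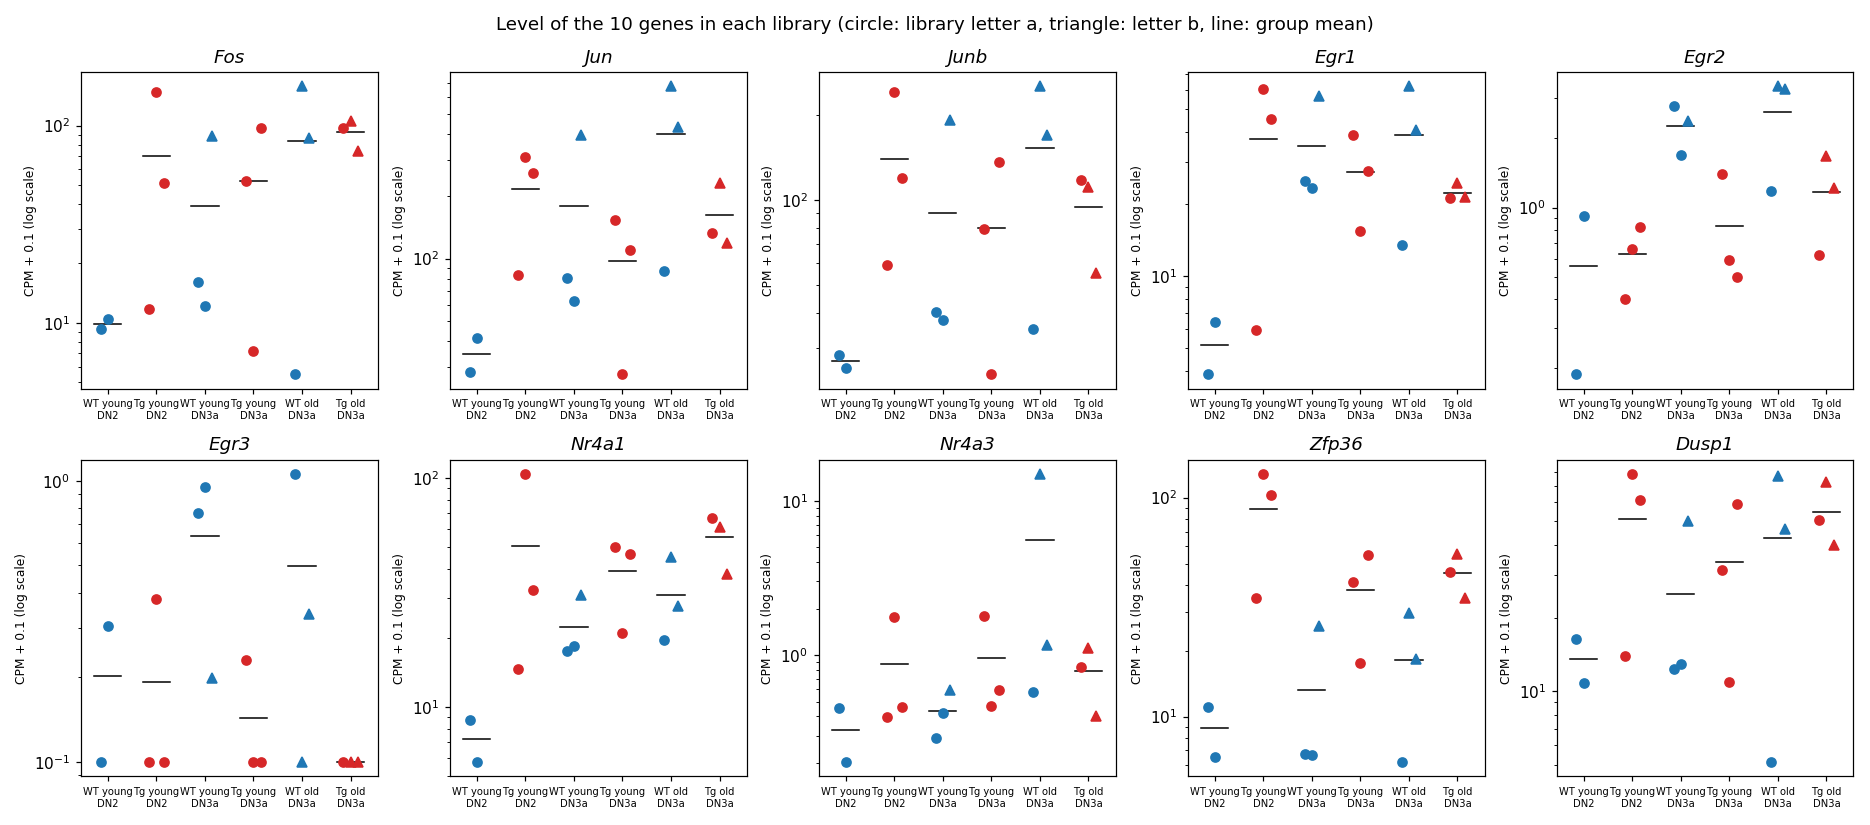
Level of each gene in each of the 17 libraries, in CPM plus 0.1 on a log axis, by group (blue wild-type, red transgenic; circles library letter a, triangles letter b; the line is the group mean). Points within a group often lie several-fold apart, as for Fos, which ran from 5.38 to 158 CPM in wild-type old DN3a.

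The genes varied between libraries of 1 group more than most genes did. The pooled SD of log2 CPM within groups had a median of 1.14 over the 9 tested genes, against 0.315 over the 13534 tested genes. Fos had the largest (1.73), at the 99.8th percentile of all tested genes, and Egr2 the smallest (0.73), at the 88.0th. Fos differed 29.4-fold between the highest and lowest library of wild-type old DN3a and 13.6-fold within transgenic young DN3a, but 1.13-fold between the 2 wild-type DN2 libraries. In wild-type old DN3a Fos stood at 5.38 CPM in the a library and at 158 and 86.2 CPM in the b libraries. Wild-type young DN3a and old DN3a of both genotypes mix the letters, so the spread there includes any difference between letters. The differences reported below are read against this spread.

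Transgenic and wild-type cells were compared at DN2 first. Zfp36, Nr4a1 and Egr1 were higher in transgenic DN2, and all 9 tested genes had a positive difference. Zfp36 stood at 11.003 and 6.46 CPM in the wild-type libraries and at 34.6, 128 and 103 CPM in the transgenic ones. Nr4a1 stood at 8.63 and 5.64 CPM in wild-type and at 14.5, 104 and 32.2 CPM in transgenic libraries. For both genes every transgenic library lay above both wild-type ones. Zfp36 was 11.1-fold higher (log2 3.48 ± 0.88 SE, adjusted p = 0.0121, edgeR) and Nr4a1 7.83-fold (2.97 ± 0.79, adjusted p = 0.0154). Egr1 stood at 3.79 and 6.36 CPM in wild-type and at 5.87, 60.7 and 45.4 CPM in transgenic libraries. Its groups overlapped, since transgenic replicate 1 lay below the higher wild-type library, and the difference was 8.26-fold (3.05 ± 0.95, adjusted p = 0.0333).

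The AP-1 genes had differences nearly as large that did not pass the test. Jun stood at 28.2 and 41.1 CPM in wild-type and at 82.8, 307 and 259.8 CPM in transgenic DN2 (log2 2.80 ± 1.15, adjusted p = 0.0958). Junb stood at 28.3 and 25.5 CPM against 58.8, 241 and 119.6 CPM (2.53 ± 1.08, adjusted p = 0.108). Fos stood at 9.15 and 10.4 CPM against 11.6, 147 and 51.3 CPM (3.02 ± 1.56, adjusted p = 0.179). All 3 genes were above wild-type in every transgenic library, with replicate 1 nearest to wild-type. Of the rest, Dusp1 (2.06 ± 1.12), Nr4a3 (1.75 ± 1.42) and Egr2 (0.34 ± 0.92) overlapped between the groups, with adjusted p of 0.200, 0.384 and 0.821.

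Counted over the list, 3 of 9 tested genes were higher and 0 lower, where 25.3% of the 13534 genes were called in either direction, 13.3% higher. The groups did not overlap for 5 of 9 genes (Nr4a1, Fos, Jun, Junb and Zfp36), and for 47.0% of all tested genes. The median log2 difference of the 9 genes was 2.80, beside 0.03 over all tested genes. The 3 calls rest on both wild-type libraries, since without either of them 1 library is left in that group. The Egr1 call was also lost on leaving out some single transgenic libraries. Its log2 difference was 2.43 to 3.58 over the fits that left out 1 library. Zfp36 stayed at 3.04 or more on the log2 scale whichever library was left out. A fit without robust estimation of the spread called 5, adding Jun and Junb. An unnamed feature of the table held 3.81 to 16.6% of reads in transgenic and 0.609 to 1.33% in wild-type DN2, and 0 of the 9 were called with its share as a covariate, a fit that called 10.4% of all genes. The differences in that fit were 3.25 ± 1.10 for Zfp36, 2.64 ± 0.99 for Nr4a1 and 2.35 ± 1.13 for Egr1, with adjusted p of 0.0859, 0.117 and 0.224. Mitochondrial genes took 1.96 to 3.75% of reads in transgenic and 12.2 to 13.4% in wild-type DN2. With mitochondrial genes, the unnamed feature and Lars2 removed from the table, Zfp36, Nr4a1 and Egr1 were called as before (3 of 9, beside 25.0% of genes).

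Markers of other cell types were counted in this comparison too, where 13.3% of all tested genes were higher and 25.3% called in either direction. The summed level of 12 myeloid markers was 131 to 159.7 CPM in transgenic and 33.9 to 35.9 CPM in wild-type DN2, with 3 of 5 tested genes higher, among them Mpo (4.73 ± 0.50) and Itgam (4.37 ± 0.49). The defining markers Cd14, Elane, S100a8 and S100a9 had 0 reads in both groups. The 10 dendritic and MHC class II markers summed to 25.5 to 29.2 against 8.71 to 15.3 CPM, with Siglech, Xcr1 and Batf3 at 0 in both, and the 9 erythroid and platelet markers to 9.74 to 17.9 against 2.11 to 4.92 CPM. The 10 markers of natural killer and innate lymphoid cells summed to 183 to 304 against 276 to 304 CPM. Of the 5 tested, 4 were higher, among them Gzmb (11.42 ± 1.04), and 1 lower (Gzma), with a median log2 difference of 4.69, and Ncr1 and Klrk1 were at 0 in both groups. The 8 B cell markers summed to 54.7 to 72.0 against 63.6 to 64.4 CPM, with 1 of 3 tested higher and 0 lower. The 10 thymic stroma markers summed to 247 to 292 against 207 to 219 CPM. Of the 4 tested, 1 was higher and 2 lower, with a median log2 difference of -1.54. The part of such cells in the result was not tested. Of 13 tested heat shock genes 0 were higher and 1 lower in transgenic DN2, with a median log2 difference of -0.36. The 14 listed summed to 3279 to 4162 CPM in transgenic and 5293 to 5465 CPM in wild-type DN2. Among them, the pair Hspa1a and Hspa1b stood at 0 to 1.11 CPM in all 5 DN2 libraries. In transgenic replicates 2 and 3 Hspa1a stood at 0.557 and 0.843 CPM and Hspa1b at 1.11 and 0.723 CPM. In transgenic replicate 1 they stood at 0 and 0.0994 CPM. In the wild-type libraries Hspa1a stood at 0 and 0.103 CPM and Hspa1b at 0.880 and 0 CPM. How these low levels relate to the early response genes was not tested.

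**Figure D2:**
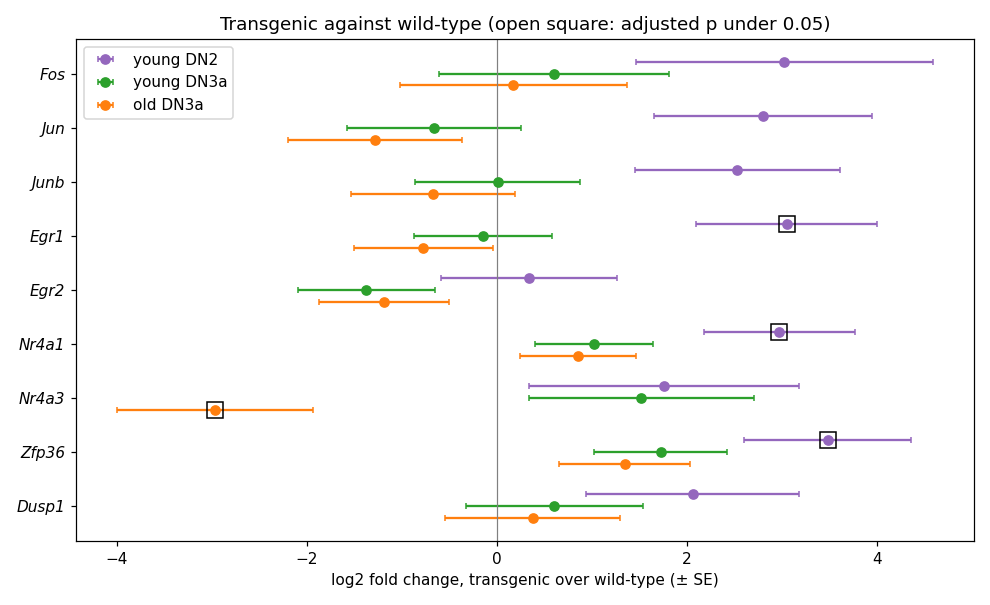
Log2 fold change of transgenic over wild-type for the 9 tested genes at DN2 and at DN3a of young and old mice, with bars of 1 SE from edgeR and open squares at an adjusted p under 0.05. Zfp36 lies above 0 in all 3 settings, at 3.48, 1.72 and 1.35, whereas Jun lies at 2.80, -0.66 and -1.28.

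Other genes of the early response were counted in the same DN2 comparison, where 13.3% of all tested genes were higher and 25.3% called in either direction. Of 24 tested early response genes beyond the 10, 12 were higher and 1 lower. Klf2, a quiescence and trafficking factor (4.13 ± 0.57, adjusted p = 6.87e-05), and Rhob, a small GTPase (4.42 ± 0.75, adjusted p = 0.000341), had large changes, and Ier2 rose by 2.13 ± 0.48. Of the AP-1 relatives 3 of 9 were higher and 0 lower, led by Mafk (0.69 ± 0.17) and Mafg (1.14 ± 0.33), while Fosb, the AP-1 gene nearest to Fos, ran from 0.696 to 84.6 CPM in transgenic DN2 and did not pass (3.87 ± 2.40, adjusted p = 0.264). Of 12 MAP kinase feedback genes 2 were higher, the phosphatases Dusp2 (1.85 ± 0.27) and Dusp5 (2.38 ± 0.58), and 0 lower. Zfp36l2, a relative of Zfp36, was higher (1.21 ± 0.20, adjusted p = 0.000247).

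Genes of receptor signalling were called in both directions in the same comparison, to be read against the same 25.3% of all genes. Of 20 genes of the signalling machinery 6 were higher and 8 lower, among them Ptcra, the pre-T cell receptor alpha chain, at 108 and 136 CPM in wild-type and at 6.46, 3.62 and 1.57 CPM in transgenic DN2 (-4.87 ± 0.40, adjusted p = 5.43e-07). Of 19 tested genes known to be induced by the receptor 5 were higher and 4 lower. Cd5, a surface protein whose level follows receptor signalling, was higher (1.93 ± 0.23), and Id3, a target of EGR factors, was lower (-2.20 ± 0.37). Nab2, an EGR corepressor and target, was not called (0.31 ± 0.36, adjusted p = 0.562), nor was the activation marker Cd69 (0.44 ± 1.12, adjusted p = 0.809).

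At DN3a in young mice, none of the 9 genes passed the test by edgeR, and 1 had an unadjusted p under 0.05 (Zfp36). Over all tested genes edgeR called 9.86%. DESeq2 called 0 of the 9 (12.6% of all genes), and limma voom with quality weights called 2 (27.3% of all genes). Zfp36 stood at 6.65, 6.59 and 25.9 CPM in wild-type and at 41.3, 17.5 and 54.7 CPM in transgenic libraries (log2 1.72 ± 0.70, adjusted p = 0.157). The single wild-type library above transgenic replicate 2 was replicate 3, the only one of letter b. With the letter as a covariate Zfp36 was higher (2.37 ± 0.67, adjusted p = 0.0354; 14.0% of genes called), and likewise in a fit of the a libraries alone (2.69 ± 0.72, adjusted p = 0.0475; 10.7% called).

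The other genes overlapped between the genotypes, except Egr2. Egr2 stood at 2.66, 1.59 and 2.27 CPM in wild-type and at 1.30, 0.490 and 0.397 CPM in transgenic young DN3a, below wild-type in every library, and did not pass the test (-1.37 ± 0.72, adjusted p = 0.267). The groups did not overlap for this 1 of 9 genes, and for 31.8% of all tested genes. Nr4a1 stood at 17.5, 18.3 and 30.7 CPM against 49.8, 20.8 and 46.5 CPM (1.02 ± 0.62, adjusted p = 0.362). Jun had its extremes in both groups, at 80.1, 62.4 and 396 CPM in wild-type and 153, 27.6 and 109 CPM in transgenic libraries. Its difference was -0.66 ± 0.91 (adjusted p = 0.727) in the fit of all libraries and 0.40 ± 0.77 with the letter as a covariate, and Egr1 changed sign in the same way (-0.15 ± 0.73 and 0.32 ± 0.72).

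In old DN3a, Nr4a3 was the gene called, and the call rested on 1 library. It stood at 0.478, 14.8 and 1.06 CPM in wild-type and at 0.733, 1.02 and 0.304 CPM in transgenic libraries (log2 -2.96 ± 1.03, adjusted p = 0.0364). Without wild-type replicate 2, the library at 14.8 CPM, the difference was -0.15. The call was also lost without any 1 of the 3 transgenic libraries, in limma voom with quality weights (-1.16 ± 0.93, adjusted p = 0.362), and with the letter as a covariate (-2.55 ± 1.05, adjusted p = 0.0700; 33.3% of genes called). So 1 of 9 genes was lower and 0 higher, where 30.6% of genes were called, 15.7% lower. The median log2 difference was -0.67, beside -0.04 over all tested genes.

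Zfp36 lay higher in every transgenic old library, at 45.5, 55.4 and 34.6 CPM against 6.10, 29.5 and 18.2 CPM, without passing the test over all libraries (1.35 ± 0.69, adjusted p = 0.161). It was the 1 of 9 genes with groups that did not overlap, beside 44.3% of all tested genes. Among the b libraries alone, 2 of each genotype, it was higher (0.96 ± 0.28, adjusted p = 0.00669). In this fit the wild-type mice were 8 and the transgenic mice 10 weeks old, so genotype and age cannot be told apart. In the same fit Jun (-1.61 ± 0.28, adjusted p = 4.07e-05), Junb (-1.30 ± 0.27, adjusted p = 0.000524) and Egr1 (-1.11 ± 0.27, adjusted p = 0.000819) were lower, which makes 4 of 9 genes called where 25.6% of all genes were. Jun stood at 677 and 432 CPM in those wild-type libraries and at 232 and 119 CPM in the transgenic ones. In the a libraries, 1 of each genotype, Jun stood at 87.1 CPM in wild-type and 133 CPM in transgenic cells. The order of the genotypes was the opposite one there, and so was that of the ages (10 weeks in wild-type, 6 in transgenic). Egr2 (-1.18 ± 0.68, adjusted p = 0.201) and Nr4a1 (0.85 ± 0.61, adjusted p = 0.321) overlapped between the genotypes.

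The letter went with large differences among wild-type DN3a libraries. For 8 of the 10 genes the 3 b libraries lay above the 3 a libraries; of the 9 tested genes these are all but Egr2, where 14.5% of all tested genes lay so. Egr3 lay the other way, at 0.665 to 0.956 CPM in the a libraries and 0 to 0.236 CPM in the b libraries. Fos was at 5.38 to 16.0 CPM in the a libraries and 86.2 to 158 CPM in the b libraries. Jun was at 62.4 to 87.1 CPM and 396 to 677 CPM, and Dusp1 at 5.02 to 12.9 CPM and 46.2 to 76.4 CPM. The ratio of the means ran from 1.86 for Nr4a1 to 9.99 for Fos and 16.6 for Nr4a3, which rests on 1 library. Since 2 of the 3 b libraries are from old mice and 2 of the 3 a libraries from young mice, the letter and age are partly confounded.

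Transcripts of the heat shock genes Hspa1a and Hspa1b moved with the letter in these libraries, to a greater extent than the early response genes followed. The summed level of all listed heat shock genes differed far less. It was 2824 to 4553 CPM in the wild-type a libraries of DN3a and 5259 to 6304 CPM in the b libraries. Hspa1a, an inducible chaperone gene, stood at 0.190 to 1.20 CPM in the 3 wild-type a libraries of DN3a and at 51.3 to 177 CPM in the 3 b libraries. Its neighbour Hspa1b, nearly identical in sequence, stood at 0.213 to 7.53 CPM and 82.1 to 285 CPM. In transgenic old DN3a Hspa1a was at 303 and 92.1 CPM in the b libraries and at 52.2 CPM in replicate 1, which has letter a. Fosb (1.31 to 9.24 against 44.1 to 340.0 CPM) and Cd69 (2.02 to 4.37 against 17.2 to 107 CPM) were likewise higher in the wild-type b libraries. Ptcra lay the other way (374 to 493 against 200.1 to 289 CPM), and Cd5 was level (9.22 to 13.6 against 9.26 to 11.2 CPM). What sets these libraries apart was not tested.

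**Figure D3:**
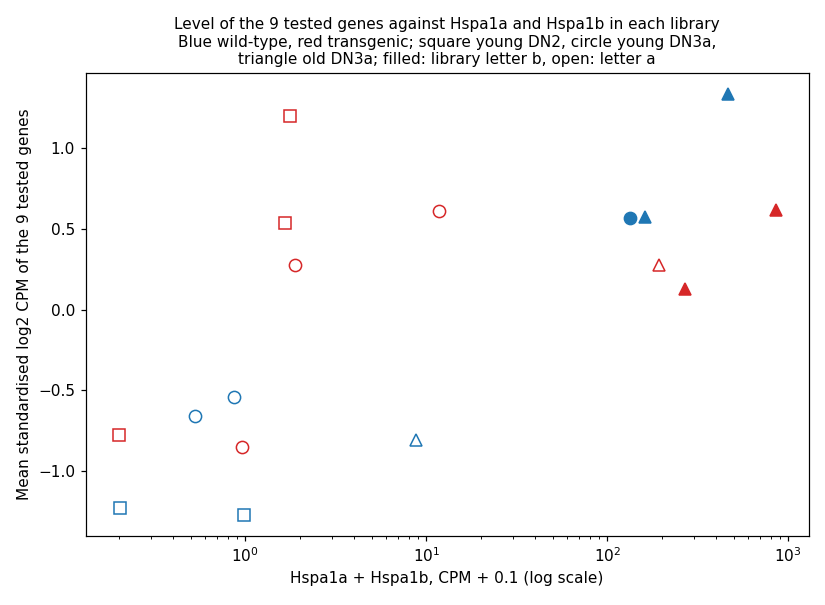
Mean standardised log2 CPM of the 9 tested genes against the summed level of Hspa1a and Hspa1b in each library (CPM plus 0.1, log axis; colour is genotype, shape stage and age, filled points letter b). All 6 libraries above 100 CPM of the heat shock pair have a mean level above 0, and 4 libraries below 20 CPM of the pair do as well, all of them transgenic.

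The step from DN2 to DN3a asks how the genes change as the cells of 1 genotype mature. In the fit of all libraries 0 of 9 genes passed in either genotype by edgeR, with 2 at an unadjusted p under 0.05 in wild-type cells (Egr1 and Egr2) and 0 in transgenic cells, where 6.35% and 25.9% of all genes were called. DESeq2 called 1 in wild-type (Egr1; 9.61% of all genes) and 0 in transgenic cells (24.8%). Limma voom with quality weights called 0 in wild-type (12.1%) and 5 in transgenic cells (43.4%). In wild-type cells Egr1 went from 3.79 and 6.36 CPM in DN2 to 25.0, 23.3 and 56.9 CPM in DN3a without overlap (2.71 ± 0.94, adjusted p = 0.106). Egr2 went from 0.0880 and 0.820 to 2.66, 1.59 and 2.27 CPM, also without overlap (2.19 ± 0.86, adjusted p = 0.135). The wild-type groups did not overlap for 6 of 9 genes (Egr1, Egr2, Nr4a1, Fos, Jun and Junb) and for 43.2% of all tested genes, and the transgenic groups overlapped for all 9, beside 34.9% of genes without overlap.

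Libraries of both stages from 1 mouse were then compared. Because 5 young mice gave both stages (wild-type 1 and 2, transgenic 162, 163 and 166), the mouse was also fitted as a block over these 10 libraries, all of letter a. Jun went from 28.2 to 80.1 CPM and from 41.1 to 62.4 CPM in the wild-type mice. In the transgenic mice it went from 82.8 to 27.6, from 307 to 109 and from 259.8 to 153 CPM. It thus rose with the stage in both wild-type mice and fell in all 3 transgenic mice. Junb was the other tested gene with opposite directions in every mouse of the 2 genotypes, whereas Egr1, Egr2, Nr4a1, Nr4a3 and Fos went both ways among the transgenic mice. The share of all tested genes with opposite directions in every mouse was not counted. The blocked log2 change of Jun was 0.98 ± 0.28 in wild-type (adjusted p = 0.0449) and -1.30 ± 0.23 in transgenic mice (adjusted p = 0.000604).

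Junb and Zfp36 fell as well in transgenic mice under the block. Junb went from 58.8 to 24.2, from 241 to 136 and from 119.6 to 79.1 CPM (-0.92 ± 0.18, adjusted p = 0.00165). Zfp36 went from 34.6 to 17.5, from 128 to 54.7 and from 103 to 41.3 CPM (-1.20 ± 0.21, adjusted p = 0.000559). So the block called 3 of 9 genes in transgenic mice, all lower (24.3% of genes called), and 1 of 9, Jun, in wild-type mice (7.42% called). With the mouse as a random block in limma voom over all 17 libraries, at an estimated correlation of -0.00876, 0 of 9 were called in either genotype (25.0% and 8.62% of genes in transgenic and wild-type cells). In wild-type mice Junb was at 28.3 and then 40.3 CPM, and at 25.5 and then 37.5 CPM, which did not pass (0.46 ± 0.23, adjusted p = 0.258), and Zfp36 went from 11.003 to 6.65 and from 6.46 to 6.59 CPM (-0.44 ± 0.29, adjusted p = 0.397). Egr1 went from 3.79 to 25.0 and from 6.36 to 23.3 CPM in the wild-type mice, narrowly outside the threshold (2.21 ± 0.58, adjusted p = 0.0520).

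The difference between the genotypes in this step was tested as an interaction, the log2 change in transgenic minus that in wild-type cells. Over all libraries 0 of 9 genes passed by edgeR, with 2 at an unadjusted p under 0.05 (Egr1 and Jun), where 20.9% of all genes were called, and DESeq2 (23.6% of all genes) and limma voom with quality weights (33.8%) called these 2. Jun was at -3.46 ± 1.44 (adjusted p = 0.112) and Egr1 at -3.19 ± 1.17 (adjusted p = 0.0711). With the letter as a covariate in edgeR they were at -2.40 ± 1.15 (adjusted p = 0.158) and -2.72 ± 1.12 (adjusted p = 0.101). With the mouse as a block Jun (-2.28 ± 0.36, adjusted p = 0.000489) and Junb (-1.38 ± 0.29, adjusted p = 0.00439) passed, 2 of 9 beside 18.4% of genes. With the mouse as a random block 0 of 9 passed, beside 22.5% of genes. The stage and genotype contrasts share libraries, so a positive difference in DN2 and a negative interaction are not independent.

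**Figure D4:**
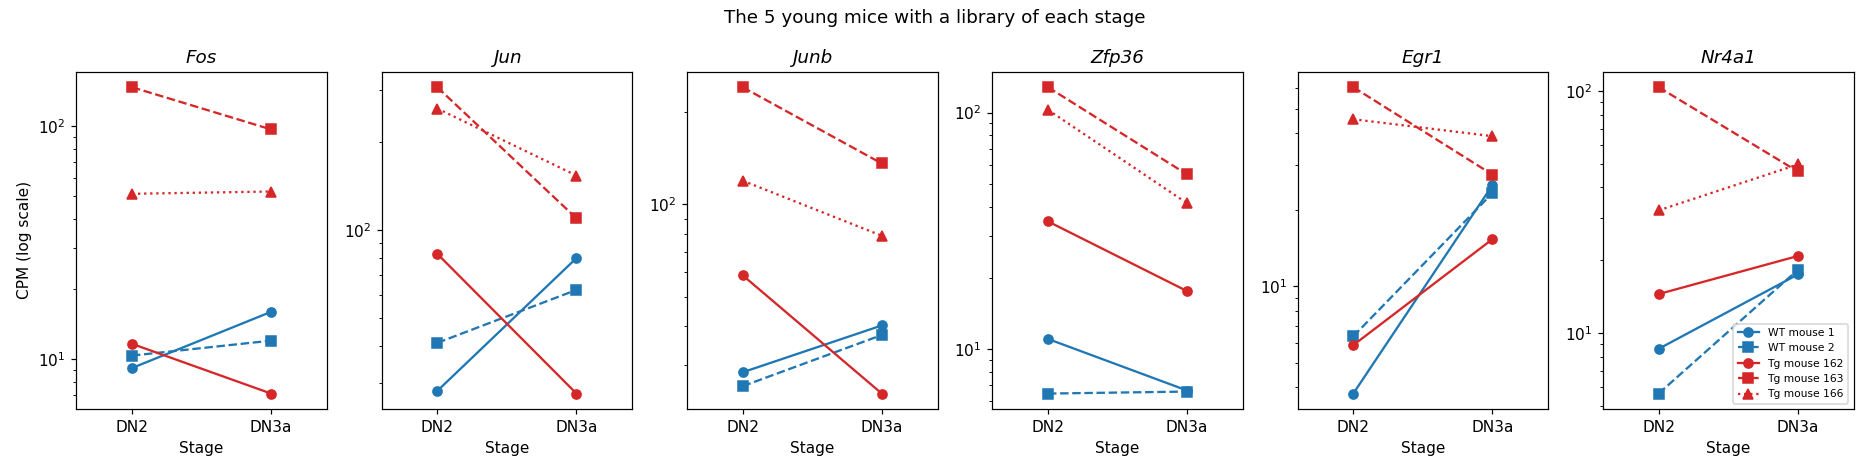
Level of 6 genes in the DN2 and DN3a libraries of each of the 5 young mice with both, in CPM on a log axis (blue wild-type, red transgenic; a line joins the libraries of 1 mouse). Jun and Junb go up in both wild-type mice and down in all 3 transgenic mice, and the line of mouse 162 is the lowest transgenic line in every panel.

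One transgenic mouse was low at both stages. Mouse 162 had the lowest transgenic level of 8 of the 10 genes in DN2 and again in DN3a, the exceptions being Egr2 and Egr3. Of all tested genes 3.73% had their lowest transgenic level in this mouse at both stages. In DN2 this mouse was at 11.6 CPM for Fos, where mice 163 and 166 were at 147 and 51.3 CPM, and in DN3a at 7.11 CPM, where they were at 97.0 and 52.5 CPM. Its DN2 library had 3.81% of reads in the unnamed feature, against 16.6% and 12.4% in the other two, and its DN3a library 7.13%, against 0.876% and 13.9% in those of mice 163 and 166. The part of this in the result was not tested.

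Old against young DN3a was compared within each genotype. By edgeR 0 of 9 genes passed in wild-type cells, with 1 at an unadjusted p under 0.05 (Nr4a3), and 0 of 9 in transgenic cells, with 0 at that level, where 0.244% and 7.82% of all genes were called. DESeq2 called 1 (Nr4a3; 0.863% of all genes) and 0 (10.5%), and limma voom with quality weights 0 and 0 (2.02% and 13.3%). Nr4a3 was at 0.190, 0.319 and 0.493 CPM in young and 0.478, 14.8 and 1.06 CPM in old wild-type DN3a (4.04 ± 1.12, adjusted p = 0.212), and at 1.23 on the log2 scale without the library at 14.8 CPM. The other 8 genes had differences of 0.19 to 1.20 in wild-type and of -0.43 to 0.71 in transgenic cells. The interaction of genotype with age called 0 of 9 by edgeR (3.05% of all genes), with 1 at an unadjusted p under 0.05 (Nr4a3). It called 0 by DESeq2 (5.07%) and 0 by limma voom with quality weights (4.74%).

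The genes moved together over the libraries. The median Pearson correlation of log2 CPM over the 36 pairs of tested genes was 0.70 over 17 libraries, and 0.80 for deviations from the group means. Without the scarce Egr2 and Nr4a3 it was 0.78 and 0.87 over 21 pairs. These correlations are a description: all points share the libraries and their depth. Genes outside the list whose log2 CPM was most like the mean standardised level of the 9 were Ppp1r15a (r = 0.95), Sik1 (0.93), Hey1 (0.92), Klf6 (0.92), Dnajb9 (0.91), Fosb (0.91), Plk3 (0.91) and Ier5 (0.90), each over 17 libraries. By deviations from group means they were Ptgs2 (0.96), Klf6 (0.95), Ppp1r15a (0.95), Klf4 (0.94), Sik1 (0.94), Tnfaip3 (0.93), Fosb (0.93) and Hey1 (0.92). On the same deviations Hspa1a stood at 0.85 and Cd69 at 0.77, while Nab2 stood at -0.32, Cd5 at -0.45 and Ptcra at -0.59.

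**Figure D5:**
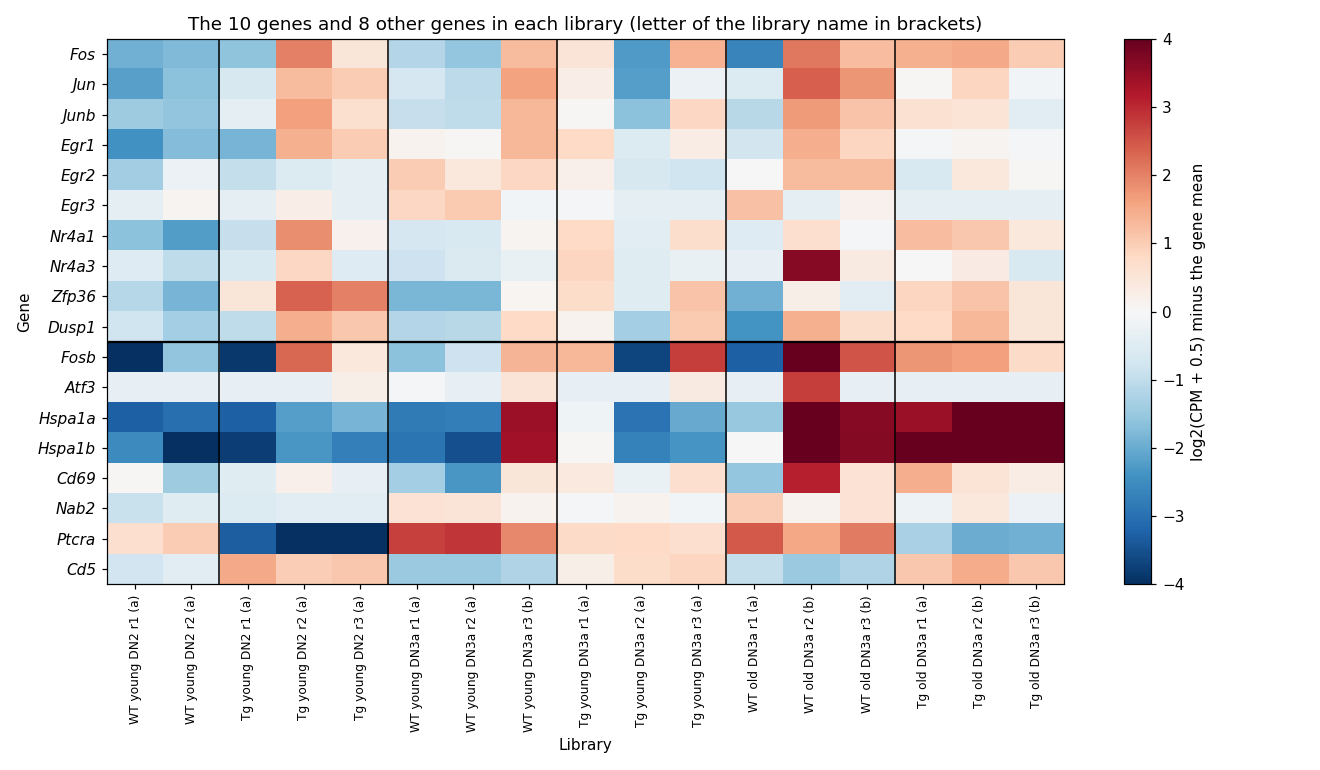
Log2(CPM + 0.5) of the 10 genes and 8 others in each library, as the difference from the gene's mean over libraries (colour scale cut at -4 and 4; groups parted by lines, library letter in brackets). Columns of high values for the AP-1 genes appear in every group but wild-type DN2, and Hspa1a and Hspa1b are high in the 5 libraries of letter b and in transgenic old DN3a replicate 1.

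In DN3a the counts of the other lists stand beside 9.86% of all genes called in young and 30.6% in old mice, so that several of those in old mice are near or below the share of all genes. Of 24 tested early response genes 4 were higher and 1 lower in young transgenic DN3a, and 5 higher and 2 lower in old. Btg1, an antiproliferative gene, was higher in both (1.53 ± 0.22 and 1.13 ± 0.22), as was Klf2 (3.55 ± 0.51 and 2.69 ± 0.46), and Btg2 was lower in both (-1.20 ± 0.25 and -0.84 ± 0.25). Klf2 is also among 10 markers of double positive and mature T cells. Of these 10, 5 were higher and 1 lower in young transgenic DN3a, and 5 higher and 2 lower in old. Their median log2 differences were 1.54 and 1.38. In transgenic DN2, 2 were higher and 2 lower, where 25.3% of all genes were called. The part of such cells or of maturity was not tested. Of 11 tested NF-kB feedback genes 1 was higher and 3 lower in young, and 0 higher and 3 lower in old DN3a, with Nfkbie, an inhibitor of NF-kB, at -1.27 ± 0.16 and -0.86 ± 0.16. Among 12 MAP kinase feedback genes 0 were called in young DN3a, with 3 at an unadjusted p under 0.05, and 3 were higher and 2 lower in old, including Spry2, a feedback inhibitor of receptor tyrosine kinase signals (-7.17 ± 0.80). Of 19 tested genes induced by receptor signals 8 were higher and 0 lower in young, and 7 higher and 4 lower in old DN3a, with Cd5 at 2.24 ± 0.20 and 2.47 ± 0.20. Of 13 tested heat shock genes 1 was higher in young and 7 in old transgenic DN3a, 0 lower in either, led in old cells by Hspa8 (1.19 ± 0.19).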

How the data were processed

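RNA of sorted thymocytes was sequenced as single reads of 100 bases, per the labels' protocols. Per the submitters' processing notes, the authors counted reads per gene with featureCounts (build mm10), and the table holds these counts unscaled as deposited. Which aligner, annotation and strand setting served is not given in the sources used here. Without the strand setting, it is unknown whether reads of Jun and Zfp36 were kept apart from those of any overlapping antisense genes. Identifiers were named from RefSeq (25275 of 27179).

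After TMM scaling, edgeR 4.0.16 (R 4.3.3) was fitted to the counts (filterByExpr, minimum count 10 and total 15, glmQLFit and glmQLFTest, 1 mean per group over 17 libraries), with Benjamini-Hochberg adjustment over 13534 genes at 0.05. The SE is the log2 fold change divided by the root of F. CPM used the whole library's reads. Robust estimation of the prior was chosen after fits with and without it had been seen, and the closing section gives the other. DESeq2 1.42.0 and limma 3.58.1 were alternatives. The procedure was tested on simulated counts.

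The members and lists were chosen with earlier results of these data known. Beyond the members, named genes are up to 4 called genes per list and genotype comparison by smallest adjusted p, 11 genes fixed by name, and 8 of like pattern by each of 2 measures. Libraries of both stages come from the same mouse in 5 cases, per the labels. Their deviations from group means correlated at -0.07 to 0.19 over all tested genes. The mouse block can be estimated for stage contrasts only.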

Additional observations from a re-analysis of the deposited data

Results flagged for a closer look

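The change from DN2 to DN3a differed between the genotypes for 2 genes once the mouse was taken as a block, with every mouse of 1 genotype moving one way and every mouse of the other the opposite way. For Jun the log2 change in transgenic minus wild-type mice was -2.28 (adjusted p = 0.000489, edgeR with the mouse as a block), and for Junb it was -1.38 (adjusted p = 0.00439). The direction held in 2 of 2 wild-type and 3 of 3 transgenic mice for both genes. The share of all tested genes with such opposite directions was not counted. The blocked fit called 2 of 9 genes for this difference, beside 18.4% of all genes. Without the block, over all libraries, the same differences were -3.46 and -2.52, with adjusted p of 0.112 and 0.210. These libraries include wild-type young DN3a replicate 3, the only young one of letter b. With the letter as a covariate in edgeR the differences were -2.40 and -1.71 (adjusted p of 0.158 and 0.353). In letter a libraries only they were -2.18 and -1.36. With the mouse as a random block in limma voom, at an estimated correlation of -0.00876, 0 of 9 genes passed for this difference (22.5% of all genes). Groups of 2 or 3 libraries are too small for a test of single outlying libraries.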

How the results depend on the processing

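Counts of called genes are of 9 tested, with the share of all genes called in the same fit in brackets, and differences are log2. Of the fits that left out 1 library, those of old DN3a and of the stage interaction have a share given. Counts from the others cannot be read against all genes here. In transgenic against wild-type DN2 (3 called), 5 passed with only the groups compared in the fit (18.3%), with DESeq2 (25.3%), with limma voom and quality weights (35.5%), without robust estimation (25.4%), and with the level of Hspa1a and Hspa1b as a covariate (27.5%). There were 0 with the unnamed feature's share as a covariate (10.4%) or in female mice only (16.8%), 1 in letter a libraries only (23.8%), and 0 to 3 when leaving out 1 library. In young DN3a (0 called), 1 passed with the letter (14.0%) or the heat shock pair (12.9%) as a covariate and in letter a libraries only (10.7%), 2 with voom and quality weights (27.3%), and 0 to 1 when leaving out 1 library (1 without wild-type replicate 3). In old DN3a (1 called), 0 passed with the letter (33.3%) or the unnamed feature's share (25.8%) as a covariate, with the title number as a replicate block (33.7%), in female mice only (28.3%), with voom and the mouse as a random block (30.7%), and in letter a libraries only (10.1%). There, 4 passed in letter b libraries only (25.6%), where genotype and age are confounded. With the heat shock pair as a covariate 3 passed (Nr4a3, Jun and Zfp36, 28.4%), and when leaving out 1 library 0 to 1 did (22.5% to 29%). The 1 call was another gene in 2 fits: Nr4a1 with only the groups compared (29.5%) and Zfp36 with voom and quality weights (32.9%). For the stage in wild-type cells (0 called), 2 passed with only the groups compared (4.76%), 1 each in female mice only (5.19%) and with DESeq2 (9.61%), and 0 to 1 on leaving out 1 library. In transgenic cells (0 called), 5 passed with voom and quality weights (43.4%) and 2 with the heat shock pair (26.5%). For the interaction of genotype with stage (0 called), 2 passed with DESeq2 (23.6%), with voom and quality weights (33.8%), without robust estimation (20.9%) and with the heat shock pair (23.7%). On leaving out 1 library, 2 passed without transgenic DN2 replicate 1 (26.6%). In the other such fits with 2 or more libraries per group 0 passed (15.2% to 19.9%). For age, 1 passed in wild-type cells with DESeq2 (0.863%), and with the heat shock pair 1 each in transgenic cells (3.05%) and in the interaction (3.21%), where 0 were called.

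With the mouse as a replicate block, which pairs the libraries of 5 mice, 3 genes passed for the stage in transgenic cells, 1 in wild-type cells and 2 in the interaction (24.3%, 7.42% and 18.4%). With the mouse as a random replicate block (estimated correlation -0.00876), 0 passed in each of the 3 (25.0%, 8.62% and 22.5%). The block turned Dusp1 to -0.16 and Zfp36 to -0.44 in wild-type cells and Nr4a3 to 0.047 in the interaction. The title numbers follow the mouse in wild-type but not in transgenic mice, so they share only a number elsewhere; blocked by them, Egr1 in young DN3a was 0.042.

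Of 882 values of single genes outside leave-one-out fits, 772 kept direction and side of the threshold, 52 passed it newly, 18 no longer passed and 40 changed direction. With the letter as a covariate, the stage in wild-type cells was -0.067 for Dusp1, -0.16 for Zfp36 and -0.24 for Nr4a3, the young DN3a difference 0.32 for Egr1 and 0.40 for Jun, and the stage interaction 0.41 for Nr4a3. In letter a libraries only, the stage in wild-type cells was -0.18 for Dusp1 and -0.47 for Zfp36, the stage interaction 0.085 for Nr4a3, the young DN3a difference 0.38 for Egr1 and 0.66 for Jun, and the old one 0.50 for Nr4a3 and for Jun, 0.55 for Egr1 and 1.64 for Junb. In letter b libraries only the old difference was -0.079 for Dusp1 and -0.40 for Fos. In female mice only, Nr4a3 was -0.14 and -1.21 for the stage in wild-type and transgenic cells and 0.61 for age in transgenic cells, and Junb was -0.41 in young DN3a. With the heat shock pair as a covariate, Fos was -0.11 in old DN3a; for the stage in wild-type cells Fos was -0.16, Dusp1 -0.64, Zfp36 -0.75 and Nr4a3 -1.24, and Nr4a3 was -0.72 in transgenic cells and 0.52 in the interaction. With voom and quality weights, the stage in wild-type cells was -0.051 for Dusp1 and -0.33 for Zfp36, in transgenic cells -0.25 for Egr2 and -0.64 for Nr4a3, and Nr4a3 was 0.18 for age in transgenic cells. With voom and the mouse as a random block, the stage in transgenic cells was 0.13 for Nr4a1 and 0.18 for Egr1. Without the unnamed feature, Lars2 and mitochondrial genes, Junb in young DN3a was -0.0076. The cause of these changes was not tested.

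Leaving out 1 library turned the direction of some values with these ranges. In young DN3a they were -0.64 to 0.39 for Egr1, -0.072 to 2.07 for Fos, -1.33 to 0.66 for Jun and -0.50 to 1.21 for Junb. In old DN3a they were -0.14 to 1.13 for Dusp1 and -0.37 to 1.07 for Fos, and in DN2 -0.54 to 2.48 for Egr2. For the stage in transgenic cells they were -1.01 to 0.12 for Egr1, -0.33 to 0.85 for Egr2, -1.18 to 0.73 for Fos, -0.88 to 0.79 for Nr4a1 and -0.90 to 1.42 for Nr4a3. In wild-type cells they were -0.20 to 1.16 for Dusp1, -0.17 to 1.52 for Nr4a3 and -0.49 to 0.96 for Zfp36. For Nr4a3 they were -1.37 to 1.03 in the stage interaction and -0.84 to 0.63 for age in transgenic cells. The fits in letter a or b libraries only, with the mouse as a random block, without robust estimation and with the heat shock pair were chosen after seeing the data. TMM-scaled and plain CPM gave group means that differed by less than 1 SD in 60 of 60 cases (ratio 0.933 to 1.19). Where a fit left 1 library in a group (old DN3a in letter a libraries, female mice only, or wild-type DN2 when leaving out 1), that library was assumed to vary like the other groups. Groups of 2 or 3 libraries and the low counts of Egr2, Egr3 and Nr4a3 limit what can be detected.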
